A study of Mus musculus with 19 samples.

Results

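The small leucine-rich proteoglycans (SLRPs) are secreted matrix proteins built around a curved core of leucine-rich repeats. The 8 genes described here, *Dcn*, *Bgn*, *Aspn*, *Lum*, *Fmod*, *Kera*, *Prelp* and *Ogn*, were chosen by name for their place in this family, and all 8 were found by symbol among the 24547 genes used from each table. SLRPs bind the surface of collagen fibrils and influence how thick the fibrils grow and how regularly they are spaced, and several also bind growth factors such as TGF-beta. In the eye they are best known from the corneal stroma, where keratan sulfate chains on lumican and keratocan and dermatan sulfate chains on decorin accompany the ordered collagen that keeps the cornea clear. They are made mainly by fibroblasts and by keratocytes, the resident cells of the stroma.

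RNA was sequenced from the cornea and the conjunctiva of C57BL/6 mice, by the study's methods adult females of the C57BL/6J strain. Every title carries the tags 6M and 50W, which the labels do not explain. By the methods tissue was collected some months after restriction began, so 6M need not be the age at collection. Ad libitum (AL) mice ate freely. Calorie-restricted (CR) mice received a ration that was lowered in steps. The cornea had 5 AL and 5 CR libraries and the conjunctiva 4 AL and 5 CR libraries. Animals came from 2 cohorts fed different chows in the study as a whole, and in one of them the CR chow also carried more vitamins and micronutrients than the AL chow. The labels do not say which cohort gave these libraries, so intake and chow cannot be told apart here. By the methods the corneal samples were epithelium scraped off the eye, so the keratocyte layer was not a target of the collection, and the conjunctiva was cut out as a whole tissue.

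Between 10353873 and 14680980 reads were counted in each cornea library, and between 10726357 and 14433080 in each conjunctiva library. Where a library shows 0 reads, up to 3 remain possible, which is between 2.27 and 3.37 normalized counts. *Krt12*, the keratin of corneal epithelium, averaged 306448 ± 19768 normalized counts (SD, n = 5) in AL cornea and 3006 ± 1702 (n = 4) in AL conjunctiva. *Muc5ac*, the goblet cell mucin, averaged 4515 ± 1014 in AL conjunctiva and 12.9 ± 17.7 in AL cornea, and the keratin *Krt13* was abundant in both, at 21937 ± 10938 and 27224 ± 6126. *Krt12* and *Muc5ac* thus followed the tissue labels, in counts scaled separately per tissue. The list of conjunctival epithelium markers, which holds *Krt13*, did not. Its sums ran from 54684 to 100827 in AL conjunctiva and from 99065 to 136934 in AL cornea. Skeletal muscle transcripts were present in every conjunctiva library. The summed normalized counts of 6 skeletal muscle markers ran from 11320 to 51271 in AL and from 13259 to 112006 in CR libraries.

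The genes lie in 3 clusters and on the X chromosome. Positions are those of RefSeq on GRCm38.p6. The study's methods name the same assembly as mm10, the labels name GRCm39, and the tables hold no coordinates. *Dcn* (chr10:97479500-97518163), *Lum* (chr10:97565501-97572703) and *Kera* (chr10:97606962-97613688) follow each other on the plus strand, with *Epyc* next in line. *Prelp* (chr1:133910304-133930102, minus strand) and *Fmod* (chr1:134037254-134048280, plus strand) form the second group with *Optc*. *Aspn* (chr13:49544443-49567565) and *Ogn* (chr13:49608015-49624501) stand with *Ecm2* and *Omd* in the third. *Bgn* lies alone at chrX:73483601-73495936. No protein-coding gene separates neighbours within a cluster. *Aspn* and *Ogn* lie within the bounds of *Cenpp*, which is transcribed from the other strand, and *Prelp* overlaps the antisense gene *Gm15851*. Since the use of strand in counting is not known, their counts are uncertain to the extent of those partners.

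Promoter sequences of RefSeq (GRCm38.p6) were matched for 6 of the 8 genes. *Dcn* and *Lum* had no entry. The stretches of *Prelp*, *Bgn* and *Ogn* from 250 to 21 bases before the start are shown because these 3 had the smallest adjusted p-values in conjunctiva among the genes with an entry. They are read 5′ to 3′ on the strand of the gene, with matches to the searched motifs in capitals.
Prelp (chr1:133921422-133921651, minus strand): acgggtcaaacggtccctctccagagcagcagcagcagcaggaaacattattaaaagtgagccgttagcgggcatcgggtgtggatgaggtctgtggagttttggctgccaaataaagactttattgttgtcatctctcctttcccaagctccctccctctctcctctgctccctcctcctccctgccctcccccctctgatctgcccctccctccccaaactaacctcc
Bgn (chrX:73483351-73483580, plus strand): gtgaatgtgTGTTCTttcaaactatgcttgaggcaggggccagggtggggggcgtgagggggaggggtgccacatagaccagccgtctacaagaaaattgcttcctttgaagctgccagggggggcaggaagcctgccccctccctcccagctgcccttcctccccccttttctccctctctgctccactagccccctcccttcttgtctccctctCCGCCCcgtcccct
Ogn (chr13:49607765-49607994, plus strand): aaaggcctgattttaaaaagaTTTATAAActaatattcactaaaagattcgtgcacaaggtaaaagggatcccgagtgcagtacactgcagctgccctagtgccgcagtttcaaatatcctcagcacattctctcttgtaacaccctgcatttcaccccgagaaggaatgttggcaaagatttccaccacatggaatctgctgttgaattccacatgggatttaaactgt

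The 3 stretches differ in base composition. The 250 bases before the start held 64.4% G and C for *Bgn*, 55.6% for *Prelp* and 42.0% for *Ogn*, against a median of 52.4% over all promoters. The *Prelp* stretch is rich in runs of C and T and holds no searched motif. The start that RefSeq's promoter table uses for *Prelp* lies inside the gene's bounds given above. Both strands of the full windows, which reach 50 bases past the start, were searched for 7 motifs. These were the E-box CACGTG, the D-box TTANGTAA, the ROR site AGGTCA, the TATA box TATAAA, the CAAT box CCAAT, the GC box GGGCGG and the glucocorticoid receptor site TGTTCT. The E-box, D-box and ROR site, through which clock factors act, were in none of the 6 windows, and were in 7.15%, 2.32% and 16.3% of the 32851 promoters searched. TATAAA was in the windows of *Aspn* and *Ogn* (13.6% of all promoters), and in *Ogn* the capitals cover overlapping matches on both strands. CCAAT was in those of *Prelp*, *Fmod*, *Kera* and *Aspn* (37.4%). GGGCGG (35.7%) and TGTTCT (18.97%) were in that of *Bgn*. A match is only a match of letters.

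SLRP transcripts were far more abundant in the excised conjunctiva than in the scraped cornea. The tables of the 2 tissues were scaled separately, so levels were set side by side in reads per 1000000 counted reads (RPM), without a test. *Dcn*, which encodes decorin, averaged 1671 ± 422 RPM over the 9 conjunctiva libraries and 49.6 ± 23.4 over the 10 cornea libraries, a ratio of 33.7. *Ogn* (osteoglycin, also called mimecan) and *Aspn* (asporin) had the widest ratios, at 64.4 and 64.9. That of *Aspn* was 143 without CR replicate 7 of cornea, an alternative added after the data were seen, and lay between 58.4 and 80.0 with any other library left out. *Bgn* (biglycan) averaged 112 ± 41.2 against 3.16 ± 2.95 RPM, a ratio of 35.5. *Lum* (lumican) and *Prelp* had ratios of 20.4 and 19.1. For these 6 genes the highest cornea library was below the lowest conjunctiva library. *Fmod* (fibromodulin) and *Kera* (keratocan) had the smallest ratios, 7.98 and 5.83, and their ranges in the 2 tissues overlapped.

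**Figure D1:**
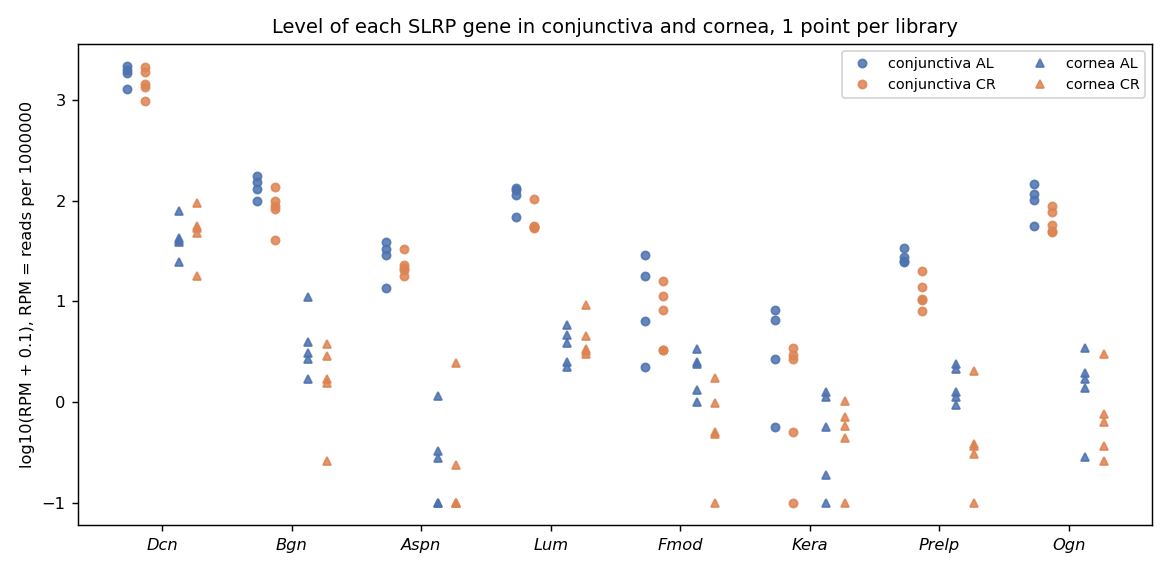
Level of the 8 SLRP genes in reads per 1000000 counted reads (RPM), as log10(RPM + 0.1), with 1 point per library, circles for conjunctiva, triangles for cornea, blue for AL and orange for CR. Conjunctiva points lie above all cornea points for every gene except *Fmod* and *Kera*, and a library with 0 reads sits at −1.

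*Kera*, a marker of the corneal stroma, was close to absent from the corneal samples. It had between 0 and 12 reads in the 10 cornea libraries, and 2 of them had 0, which allows up to 3 reads in each. *Aspn* had 0 reads in 5 cornea libraries and at most 30. In conjunctiva *Kera* had between 0 and 118 reads. The scraped corneal samples thus held few reads of the gene most particular to keratocytes.

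Scaled to the length of the annotated exons, *Dcn* led in both tissues. In conjunctiva its level was 286 ± 72.2 RPM per kilobase of exon (SD, n = 9), followed by *Lum* at 34.7 ± 13.9, *Ogn* at 32.3 ± 13.4 and *Bgn* at 18.4 ± 6.76. The lower levels per kilobase were 10.8 ± 3.53 for *Aspn*, 5.33 ± 2.51 for *Prelp*, 3.25 ± 2.67 for *Fmod* and 1.31 ± 1.21 for *Kera*. Neighbours in this order had overlapping intervals of mean ± SD, except *Dcn* and *Lum*. In cornea the leading levels per kilobase were 8.49 ± 4.01 for *Dcn* and 1.70 ± 0.845 for *Lum* (n = 10), and the other 6 lay between 0.167 and 0.518. Scaling by length holds only if reads came from whole transcripts. The labels name a kit that covers transcripts and the methods one primed at the poly(A) tail, so this was not settled.

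The first comparison asked whether the diets differed in the conjunctiva. None of the 8 genes passed the limma test at an adjusted p under 0.05 with a fold over 1.5, a rule that 50 of 13928 genes (0.359%) met. The fitted log2 change of all 8 was below 0, as it was for 52.0% of all genes tested, with a median of −0.60 against −0.02. An unadjusted limma p under 0.05 with lower levels in CR was seen for 4 of the 8 (*Prelp*, *Lum*, *Bgn* and *Ogn*), against 4.87% of all genes. Libraries of the 2 diets did not overlap, with CR lower, for *Prelp* alone, against 1.95% of all genes. In bulk tissue, fewer SLRP-producing cells and less RNA in each of them cannot be told apart.

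**Figure D2:**
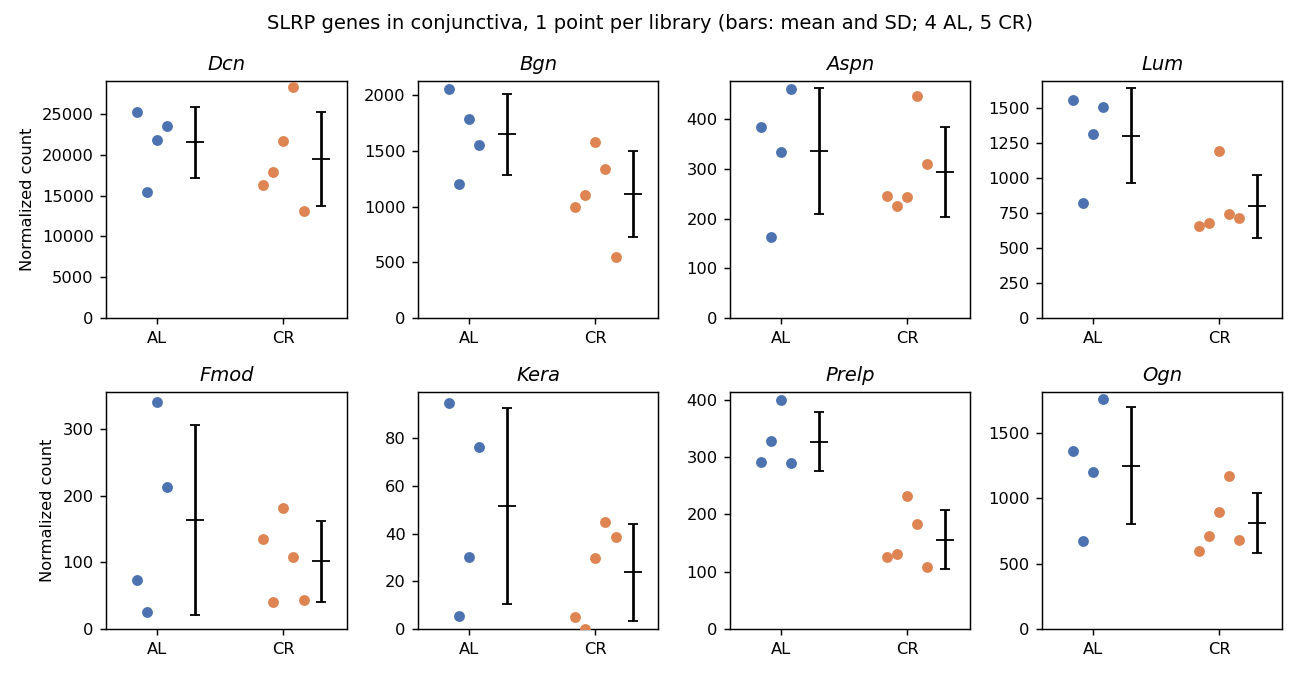
Normalized counts of the 8 SLRP genes in conjunctiva, each panel with its own axis from 0, with 1 point per library in replicate order, AL in blue (4 libraries) and CR in orange (5), and the mean with its SD in black. The CR points of *Prelp* lie between 109 and 232, below all AL points (290 to 399), and the diets overlap in the other panels.

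Decorin, biglycan and asporin form class I of the family. *Dcn*, whose protein sits on collagen I fibrils and binds TGF-beta, had 25255, 15407, 21768 and 23535 normalized counts in AL replicates 1, 3, 4 and 5. In CR replicates 1 to 5 it had 16302, 17894, 21681, 28251 and 13164. The CR range enclosed the AL range, and the highest single value was a CR library. The log2 change of *Dcn* was −0.17 ± 0.21 (SE; 95% interval −0.61 to 0.28; limma adjusted p = 0.850).

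*Bgn*, the closest relative of decorin, had 2052, 1202, 1783 and 1554 normalized counts in AL and 998, 1101, 1584, 1337 and 550 in CR. CR libraries 1, 2 and 5 were below all AL libraries, and the other 2 lay within the AL range. Its log2 change was −0.62 ± 0.27 (−1.22 to −0.02; limma adjusted p = 0.506). *Aspn*, a class I member that lacks the usual glycosaminoglycan chain, had between 164 and 462 normalized counts in AL and between 225 and 447 in CR. Its CR range lay inside its AL range, with a log2 change of −0.14 ± 0.29 (−0.75 to 0.47; adjusted p = 0.915), which was 0.04 without AL replicate 5.

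Lumican, fibromodulin, keratocan and PRELP form class II, most of whose members can carry keratan sulfate. *Prelp*, whose basic end binds heparan sulfate and which links basement membrane to connective tissue, stood out among the 8. It had 291, 328, 399 and 290 normalized counts in AL and 125, 130, 232, 183 and 109 in CR. Every CR library was below every AL library. The means were 327 ± 51.3 (SD, n = 4) and 156 ± 50.9 (n = 5). The log2 change of *Prelp* was −1.11 ± 0.23 (95% interval −1.60 to −0.62), with a limma adjusted p of 0.0529, just outside the rule, and it ranked 51st of all genes by p. That adjusted p ran from 0.00803 to 0.236 over the alternatives, and passed with array weights, a filter at a mean of 50, a pseudocount of 10, quantile normalization, voom, or without CR replicate 3 (0.00892).

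*Lum*, needed for regular fibril spacing in the corneal stroma, had 1561, 820, 1320 and 1513 normalized counts in AL and 659, 682, 1195, 748 and 717 in CR. In CR, 4 of 5 libraries were below all AL libraries, and replicate 3 was the exception. The log2 change was −0.70 ± 0.21 (−1.15 to −0.25; limma adjusted p = 0.243). Without CR replicate 3 it was −0.85 with an adjusted p of 0.0362, and with array weights −0.82 with 0.0451, both past the rule.

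*Fmod*, which binds collagen and is best known from tendon, varied widely within each diet. It had 74.0, 25.8, 340 and 213 normalized counts in AL and 134, 40.0, 182, 108 and 43.2 in CR. The AL range enclosed the CR range, and the log2 change of −0.35 ± 0.80 (−2.17 to 1.48; limma adjusted p = 0.926) became 0.20 without AL replicate 4. *Kera* had 94.9, 5.61, 30.1 and 76.3 normalized counts in AL and 4.87, 0, 29.9, 45.1 and 38.8 in CR. Its log2 change of −1.47 ± 1.20 had an interval from −4.11 to 1.18 (adjusted p = 0.759). It was −0.55 without CR replicate 2, the library at 0, and −2.66 with array weights. Both intervals included 0 and also changes beyond −2 on the log2 scale.

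*Ogn*, a class III member first described in bone and found in the cornea as mimecan, had 1365, 676, 1202 and 1758 normalized counts in AL and 595, 710, 893, 1170 and 679 in CR. Only CR replicate 1 was below all AL libraries, while all 5 CR libraries were below the AL median of 1283. The log2 change of *Ogn* was −0.59 ± 0.26 (−1.16 to −0.01; limma adjusted p = 0.513).

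**Figure D3:**
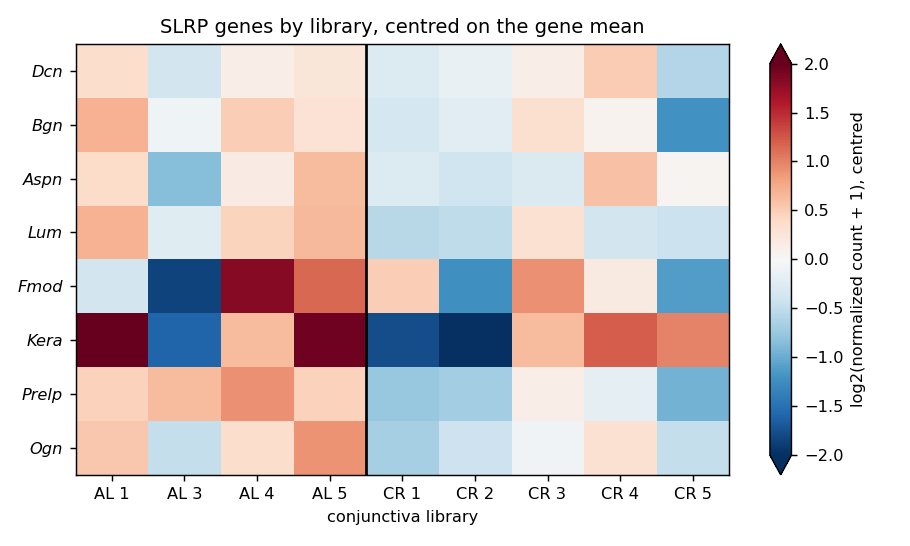
Level of each SLRP gene (rows) in each conjunctiva library (columns, AL left of the line), as log2(normalized count + 1) minus the mean of that gene over the 9 libraries, with red above and blue below the mean and colours saturating at ±2. AL 3 is blue or near white for every gene except *Prelp*, and CR 3 and CR 4 are redder than the other CR columns for most genes.

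The same libraries were high or low for most of the 8 genes. AL replicate 3 was the lowest AL library for 7 genes, all but *Prelp*. Within CR, replicate 3 was the highest for 4 genes (*Lum*, *Bgn*, *Fmod* and *Prelp*) and replicate 4 for the other 4 (*Dcn*, *Kera*, *Ogn* and *Aspn*). The mean of the 8 centred log2 values was −0.60 in AL 3 and between 0.62 and 0.78 in the other AL libraries. It was 0.26 and 0.29 in CR 3 and CR 4 and between −0.99 and −0.47 in the other CR libraries. *Kera*, with 0 to 118 reads, had the widest centred values, from −4.32 in CR 2 to 2.26 in AL 1. This low gene therefore weighs most in the mean, and the order of the CR libraries depends in part on it.

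Fibroblast markers varied over these libraries too. The summed normalized counts of 17 fibroblast and keratocyte markers ran from 33887 to 47818 in AL, with AL 3 lowest, and from 20117 to 33328 in CR, with CR 4 and CR 3 highest. All CR sums were below all AL sums. Of the 17, 2 fell by the call rule (*Col1a1* and *Col3a1*), which 0.359% of all genes met in either direction. The fitted change of 15 was below 0, against 52.0% of all genes, with a median of −0.58 against −0.02. Without *Col1a1*, *Col1a2* and *Col3a1* the sums overlapped, at 11389 to 15071 in AL and 8603 to 14463 in CR. *Pdgfra*, a fibroblast receptor, averaged 611 ± 63.7 normalized counts in AL and 416 ± 81.2 in CR, with a log2 change of −0.57 ± 0.17 (limma adjusted p = 0.208). Sums of skeletal muscle markers were lowest in AL 3 among AL libraries and highest in CR 3 of all 9. The part of cell make-up in the SLRP values was not tested.

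The profiles of 9641 genes averaging at least 100 normalized counts were compared, and those whose centred profile over the 9 conjunctiva libraries lay closest to the mean profile of the 8 were *Zfhx4*, *Srpx*, *Fbln5*, *Pi15*, *Prnp* and *Antxr2*. Their root mean square differences from it were 0.21, 0.24, 0.24, 0.26, 0.27 and 0.27 on the log2 scale, against a median of 0.69 over all genes compared. *Fbln5* encodes fibulin-5, an elastic fibre protein, and *Antxr2* a receptor that binds collagen. None of these 6 passed the call rule for diet. Of the members, *Ogn* (0.25) and *Lum* (0.31) lay closest to the profile they helped to form and *Kera* (1.52) farthest. The wide values of *Kera* are part of that mean profile, so the closest genes depend in part on them.

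In the cornea the counts were small and the comparison correspondingly weak. Of the 8 genes, 6 averaged 10 or more normalized counts and were tested, and *Kera* and *Aspn* did not. None of the 6 passed the rule that 150 of 12277 genes (1.22%) met. The fitted change was below 0 for 4 of 6, as for 53.1% of all genes, with a median of −1.16 against −0.03. An unadjusted limma p under 0.05 with lower levels in CR was seen for *Fmod* and *Prelp*, against 9.55% of all genes. For none of the 6 were the diets separate with CR lower, which 1.89% of all genes showed.

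*Prelp* had 12.1, 9.83, 13.1, 26.5 and 23.7 normalized counts in AL cornea replicates 1 to 5, and 3.29, 0, 2.27, 3.07 and 23.2 in CR replicates 1, 2, 3, 4 and 7. In CR, 4 of 5 libraries were below all AL libraries, at 0 to 3 reads, and replicate 7 was inside the AL range. The log2 change was −1.99 ± 0.93 (limma adjusted p = 0.266). The size depended on how low counts were handled, at −0.83 with a pseudocount of 10 and −0.99 with quantile normalization (adjusted p = 0.603). It was −1.47 without CR replicate 2 (adjusted p = 0.432) and −2.62 without CR replicate 7 (0.173). *Fmod* had 14.3, 28.4, 26.2, 10.6 and 38.1 normalized counts in AL and 4.38, 4.71, 0, 10.2 and 19.5 in CR. Again 4 of 5 CR libraries were below all AL libraries and replicate 7 was not, with a log2 change of −1.92 ± 0.83 (adjusted p = 0.232). It was −0.95 with a pseudocount of 10 and −1.28 without CR replicate 3.

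The other 4 genes overlapped more. *Dcn* ranged from 289 to 897 normalized counts in AL cornea and from 205 to 1141 in CR, with a log2 change of 0.16 ± 0.45 (limma adjusted p = 0.881). *Lum* ranged from 24.8 to 66.9 in AL and from 33.9 to 110 in CR (0.24 ± 0.39; adjusted p = 0.786). The sign of both changes turned below 0 without CR replicate 7 and with array weights. *Bgn* ranged from 18.6 to 123 in AL and from 1.88 to 43.7 in CR (−1.30 ± 0.67; adjusted p = 0.322), and *Ogn* from 2.20 to 39.1 and from 1.88 to 32.6 (−1.02 ± 0.87; adjusted p = 0.562). Without CR replicate 2 the change of *Bgn* was −0.66 and that of *Ogn* −0.67, and *Ogn* was −1.59 without AL replicate 1. Sums of the fibroblast and keratocyte markers overlapped in cornea, at 2667 to 3415 in AL and 2621 to 3455 in CR. *Aldh1a1* alone averaged 1750 ± 100 normalized counts there in AL and 1924 ± 418 in CR, so these sums say little about the other markers.

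**Figure D4:**
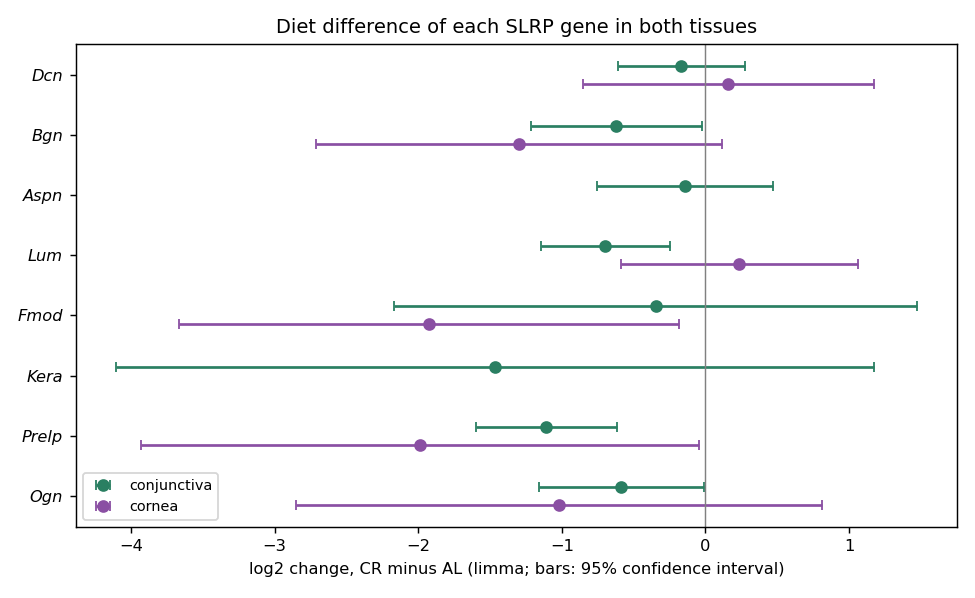
Fitted log2 change (CR minus AL) of each SLRP gene with its 95% confidence interval, in conjunctiva (green) and in cornea (purple, the 6 genes above the filter). Intervals in conjunctiva are narrow for *Dcn*, *Lum* and *Prelp*, that of *Prelp* running from −1.60 to −0.62, and most intervals in cornea are wider than those in conjunctiva for the same gene.

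Whether the diet difference itself differed between tissues was tested for the 6 genes measured in both, with the tissues taken as independent. None passed at an adjusted p under 0.05, which 2 of 11928 genes (0.0168%) did. *Lum* had the lowest p of the 6, with a conjunctiva change that was 0.93 ± 0.45 log2 units below its cornea change (−0.93; 95% interval −1.85 to −0.02; adjusted p = 0.654 from the difference of the limma changes). For *Prelp* the difference was 0.88 ± 0.96 (−1.11 to 2.87; adjusted p = 0.859) and for *Fmod* 1.58 ± 1.15 (−0.80 to 3.96; adjusted p = 0.782). Intervals this wide leave the tissues neither shown to differ nor shown to be alike.

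*Dcn* made up a larger share of the SLRP reads in CR libraries of both tissues, a measure picked after the values were seen and given here without a test. In conjunctiva *Dcn* was 80.1% to 82.7% of the reads of the 8 genes in AL and 83.3% to 87.5% in CR. In cornea it was 69.7% to 82.0% in AL and 82.5% to 89.1% in CR. The ranges of the 2 diets did not overlap in either tissue. Expressed as a ratio, *Dcn* had 4.29 ± 0.36 times (SD, n = 4) the summed counts of the other 7 genes in AL conjunctiva and 5.89 ± 0.78 times (n = 5) in CR conjunctiva. The cornea ratios were 3.27 ± 0.95 and 5.89 ± 1.39 (n = 5 each). Set against the same sum of 7, 5.46% of all genes tested in conjunctiva and 0.937% of those in cornea were also higher in every CR library than in any AL library. The sum of the other 7 genes was 42.4 to 241 normalized counts in CR cornea, so single libraries there rest on few reads.

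**Figure D5:**
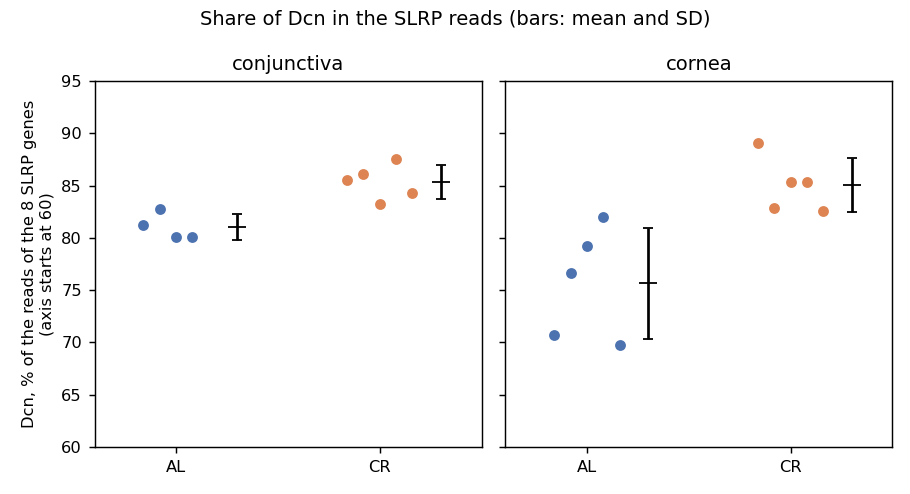
Share of *Dcn* in the reads of the 8 SLRP genes, in percent on an axis that starts at 60, in conjunctiva (left) and cornea (right), with 1 point per library and the mean with its SD in black. In both tissues all CR points lie above all AL points, by a narrow margin (82.7% to 83.3% in conjunctiva and 82.0% to 82.5% in cornea).

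Fibrillar collagens, the main binding partners of SLRPs, gave calls in the conjunctiva. Of 9 fibrillar collagen genes tested there, 4 fell and none rose. *Col1a1*, the main chain of collagen I, had 6458 ± 1153 normalized counts in AL and 2549 ± 744 in CR, a log2 change of −1.37 ± 0.20 (limma adjusted p = 0.00592). *Col3a1* (−1.57), *Col5a2* (−1.36) and *Col5a3* (−2.60) also fell, and *Col1a2* had a log2 change of −0.75 ± 0.22 (adjusted p = 0.243). In cornea none of 5 tested passed the rule, and *Col1a1* averaged 178 ± 47.6 in AL and 97.3 ± 63.9 in CR (log2 change −1.17 ± 0.53; adjusted p = 0.275).

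Set against the counts of *Col1a1*, *Col1a2* and *Col3a1*, the first and last of which fell in conjunctiva, SLRP counts are given here without a test. Summed counts of the 8 SLRPs were 0.913 ± 0.079 times those of the 3 collagens in AL conjunctiva and 1.59 ± 0.27 times in CR. In cornea the ratios were 1.06 ± 0.24 and 1.71 ± 0.20. The diets did not overlap in either tissue, with CR higher. *Dcn* made up most of the SLRP sum in both tissues, so these ratios mainly describe *Dcn*. Set against the same 3 collagens, 30.2% of all genes tested in conjunctiva and 1.23% of those in cornea were also higher in every CR library than in any AL library. Of the single SLRPs this held for *Dcn* alone, which was 1 of 8 in conjunctiva and 1 of 6 in cornea. *Lum*, *Dcn*, *Ogn* and *Aspn* had a ratio to *Col1a1* that was higher in every CR than in any AL conjunctiva library. The same held for 59.5% of all genes tested, so 4 of 8 is near the background.

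Genes that build, cut or bind SLRPs gave few calls. None of 9 keratan sulfate synthesis genes and none of 18 genes of linker, chondroitin and dermatan sulfate synthesis tested in conjunctiva passed the rule, nor did any of 7 and 18 in cornea. In conjunctiva the fitted change was below 0 for 8 of 9 and 16 of 18 of them, against 52.0% of all genes tested. The medians were −0.25 and −0.31, against −0.02. The keratan sulfate list summed there to between 4238 and 4728 in AL and between 3376 and 4195 in CR, without overlap. Of 15 genes for SLRP processing and degradation tested there, none passed and 13 had a change below 0 (median −0.44). In cornea none of 11 passed, with a median of 0.15. Among SLRP-bound ligands and receptors none of 16 passed in conjunctiva, and in cornea 1 of 14 did. That gene, *P2rx7*, a purinergic receptor engaged by biglycan, fell from a mean of 230 ± 52.6 in AL to 105 ± 43.8 in CR, a log2 change of −1.18 ± 0.24 (limma adjusted p = 0.0195). Its change in conjunctiva was −0.17 ± 0.21. Larger chondroitin and heparan sulfate proteoglycans gave no call among 12 genes tested in conjunctiva and 9 in cornea.

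Further relatives of the family did not pass the rule either. Of 10 such genes, 8 were tested in conjunctiva, where 5 had a change below 0 and the median was −0.04. *Podn* (podocan) averaged 557 ± 190 normalized counts in AL and 551 ± 193 in CR, and *Ecm2* 292 ± 103 and 236 ± 85.3. *Chad* (chondroadherin), typical of cartilage, averaged 337 ± 88.2 and 458 ± 168, and *Epyc* (epiphycan), the neighbour of *Kera*, 232 ± 114 and 199 ± 56.8. *Omd*, which lies between *Aspn* and *Ogn*, averaged 49.4 ± 26.3 and 31.1 ± 19.3. *Tsku*, *Optc* and *Chadl* had log2 changes of 0.48, −0.04 and 1.11, with standard errors of 0.33, 0.50 and 0.83. In cornea *Tsku* (−0.23 ± 0.43) and *Podn* (0.00 ± 0.54) alone reached the filter.

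Markers of other cells moved with diet in places. Macrophage markers summed to between 3342 and 4361 normalized counts in AL and between 2153 and 3346 in CR conjunctiva, and to 319 to 416 and 207 to 311 in cornea. *C1qa*, a macrophage complement gene, fell in cornea (log2 change −1.58 ± 0.39; limma adjusted p = 0.0467) and had a change of −0.63 ± 0.15 in conjunctiva (adjusted p = 0.103). Of the lacrimal gland list, *Scgb1b20* had 7.96 to 2178 normalized counts in AL cornea and 0 in all 5 CR cornea libraries, and the water channel *Aqp5* fell in cornea (−0.61 ± 0.15; adjusted p = 0.0476). No marker of the corneal or conjunctival epithelium, goblet cells, muscle, endothelium, Schwann cells, fat, melanocytes or the meibomian gland passed the rule in either tissue. Lacrimal gland markers summed to between 1280 and 1656 normalized counts in AL conjunctiva and between 1844 and 2628 in CR, so all CR sums were above all AL sums there. The single markers did not all follow the sum. Of 3 tested there, the fitted change was above 0 for 1 and below 0 for 2, with a median of −2.95. In cornea the same list summed to between 30173 and 75843 in AL and between 23368 and 36197 in CR, which overlapped. The sums of this list are not taken as amounts of lacrimal gland tissue. The 4 fat cell markers tested in conjunctiva all had a fitted change above 0, while 52.0% of all genes tested were below 0. Their median log2 change was 1.97, against −0.02 over all genes. CR replicate 5 of conjunctiva stood apart in several lists. Its meibomian and sebaceous markers summed to 8260 normalized counts, against 308 to 597 in the other 8 libraries. Its sum of tendon, sclera and cartilage markers was the highest of the 9, at 6355, of which *Sox9* alone gave 6196. Its sum of endothelial markers was the lowest, at 881. This library was the lowest CR library for 3 of the SLRPs, *Dcn*, *Bgn* and *Prelp*. Without it the log2 changes in conjunctiva were −0.039 for *Dcn*, −0.39 for *Bgn* and −0.99 for *Prelp* (limma adjusted p = 0.0577 for the last). The part of these markers in the SLRP values was not tested.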

How the data were processed

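The authors trimmed single reads with cutadapt, aligned them with STAR to mm10 and counted them per gene with HTSeq, and the labels' processing notes name GRCm39 and DESeq2. Versions are not given in the sources used here. The deposited values are log2(normalized count + 1), where the authors had divided each count by a size factor, separately per tissue. They were turned back into normalized counts and into whole reads, and 100% of values came out whole within 0.1 read. Rows with a repeated symbol (10 of 24557) were left out.

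Samples were grouped by their labels, which do not tie libraries to animals. The study calls its RNA-seq samples biological replicates, so p-values measure the spread between these libraries, taken as separate mice. Diets were compared with limma 3.58.1 (statmod 1.5.0, R 4.3.3) on log2(normalized count + 1) with trend and robust moderation, for all genes averaging 10 or more normalized counts, with Benjamini-Hochberg adjustment over all of them. This takes the place of the study's count model and was chosen because the deposited values are log2. No count model was fitted to the recovered reads, although voom on them was one alternative. The limma fold changes of low genes depend on the pseudocount. A gene was called at an adjusted p under 0.05 and a fold over 1.5. The fit was tested on simulated counts. For the difference between tissues, the conjunctiva change minus the cornea change was divided by its standard error (Satterthwaite degrees of freedom). That standard error took the tissues as independent, although by the methods several tissues were collected from each mouse. The limit of 3 reads at a count of 0 covers counting error only.

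Named genes are the 8 members, relatives with a mean of at least 10, called genes of the fixed lists (at most 4 per list, tissue and direction), *Col1a1*, *Col1a2*, *Col3a1*, *Pdgfra*, *Krt12*, *Krt13*, *Muc5ac*, and the 6 genes closest in profile. *Aldh1a1* and *Sox9* are also named, as each held most of a marker sum. The members and lists were chosen with earlier results of these data known. Alternatives were other pseudocounts, filters, scalings, array weights, a replicate block, a covariate, voom, plain limma and leaving out each library.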

Additional observations from a re-analysis of the deposited data

Results flagged for a closer look

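In 2 of 32 groups of libraries examined (8 genes, 2 tissues, 2 diets), a single library stood apart from the rest of its group by more than Dixon's 95% limit, where chance gives about 1 in 20. *Lum* had 1195 normalized counts in CR replicate 3 of conjunctiva, against 659 to 748 in the other 4 CR libraries. *Aspn* had 27.9 normalized counts in CR replicate 7 of cornea, against 0 to 1.52 in the other 4.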

How the results depend on the processing

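In conjunctiva 50 genes passed the rule (31 higher, 19 lower). The count was 149 with array weights and 4 in limma without trend and robust moderation, and scaling by total reads and quantile normalization gave 22 of 46 and 29 of 56 higher. Of the 8 SLRPs 0 passed in limma (4 at an unadjusted p under 0.05), 1 with a pseudocount of 10, a filter at 50, quantile normalization or voom (*Prelp* each time), and 2 with array weights (*Lum* and *Prelp*). In cornea 150 genes passed, 705 with array weights, 62 with a covariate for the percentage of genes at 0, 99 with voom and 34 in plain limma, and no SLRP in any of these. The difference between tissues had 2 calls, and 0 when taken per shared title number.

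Leaving out each library in turn gave 26 to 127 calls and 0 to 2 SLRPs in conjunctiva, 53 to 536 calls and 0 SLRPs in cornea, and 0 to 7 calls and 0 SLRPs for the difference. The extremes were without CR 2 and CR 3 in conjunctiva, without AL 5 and AL 4 in cornea, and without conjunctiva AL 1 and cornea CR 1 for the difference. The count moved by over 1.5 times without any 1 of 7 conjunctiva libraries (all but AL 3 and CR 4) and of 8 cornea libraries (all but CR 4 and CR 7). The 2 SLRPs were *Lum* and *Prelp*, without CR 3.

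Signs turned for genes that did not pass in the setting. Over the leave-one-out fits in conjunctiva *Fmod* ranged from −1.03 to 0.20 (without AL 4) and *Aspn* from −0.45 to 0.044 (without AL 5). In cornea *Lum* ranged from −0.059 (without CR 7) to 0.42, and *Dcn* from −0.11 (without CR 7; −0.027 without AL 1) to 0.51. With array weights *Lum* in cornea was −0.026 and *Dcn* −0.024. The difference between tissues became 0.072 for *Dcn* per shared title, and −0.027 for *Ogn* and −0.23 for *Prelp* with a pseudocount of 10. Causes were not tested.

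With the replicate number as a block, 10 genes passed in conjunctiva and 46 in cornea, no SLRP in either, and *Dcn* in cornea was −0.10. Deviations of same-numbered libraries correlated at −0.06 to 0.05 in conjunctiva and −0.30 to 0.29 in cornea, so the numbers do not pair the samples.

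A filter at 50 left *Kera* untested in conjunctiva and all but *Dcn* in cornea. Depth limits *Kera*, *Aspn*, *Prelp* and *Fmod* in cornea, where libraries at 0 allow up to 3 reads. *Bgn* and *Ogn* went down to 2 reads there.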
